A study of Mus musculus with 8 samples.

Results

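Microglia are the resident macrophages of the brain and spinal cord, and the libraries described here give the transcriptome of these cells in control mice. The series compared microglia populations in neuromyelitis optica (NMO), in which inflammation of brain, spinal cord and optic nerve damages astrocytes, and it holds 8 libraries in 3 groups. The 3 libraries whose population label names a control mouse and CD11C-negative cells were taken, which is 3 of 8; the 5 libraries from diseased mice were not used. Cells came from C57BL/6 mice, adults per the series' design text, were isolated ex vivo with CD11C, CD11B and CD45, and gave total RNA for Illumina TruSeq libraries. The control mice carried no named allele and received no named agent, and their sex and age in weeks were not given in the sources used here. In their titles the submitters call the same 3 libraries unmanipulated total microglia and number them 21, 22 and 23, so the labels do not settle whether CD11c-positive cells had been removed. Whether each library had its own mouse is not stated, so the spread between them may be technical. They are named control replicates 1, 2 and 3 in the order of the title numbers, and 3 values in a row are always in that order.

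Microglia seed the embryonic brain from yolk-sac progenitors and then maintain themselves there, with survival signals through the receptor CSF1R and identity signals through TGF-beta. In the healthy brain they survey their surroundings with motile processes, sense ATP and ADP released by other cells through purinergic receptors, read neuronal fractalkine through CX3CR1, and clear debris and synapses with the help of complement and lysosomal enzymes. They also turn on immediate-early genes, a set of transcription factors and feedback regulators induced within minutes by many stimuli.

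Expression was read at 8520053, 9246061 and 7500815 counts in genes, and 11775, 11849 and 12084 genes reached 1 CPM (counts of the gene per 1000000 counts in the library). Over the 3 libraries 11914 of 41388 genes had a mean of at least 1 CPM, of which 11130 were protein coding, and 22376 genes had no count in any library. A gene with 0 counts in all 3 libraries can be at up to 0.119 CPM (3 of 25266929 counts), a limit that covers counting error only. Pearson correlation of log2(CPM + 1) across genes was 0.990 between replicates 1 and 2, 0.989 between 1 and 3 and 0.992 between 2 and 3; genes are not independent points. The libraries differed in 4 ways that bear on the values below. Summed immediate-early genes were highest in replicate 1, summed neutrophil, monocyte and choroid plexus markers were highest in replicate 3, summed border macrophage markers were highest in replicate 2, and genes with long transcripts took more counts in replicate 3 than in the other two. CPM is used for 1 gene across libraries, for thresholds, for sums over lists, for a count-based order and for the order within cell type lists. These sums and orders are not adjusted for gene length. Levels of different genes are otherwise compared in TPM, which is CPM per kilobase of exon scaled to a sum of 1000000 in each library.

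The microglial identity of the cells was read from 3 genes: P2ry12 and Tmem119, which mark microglia against other brain macrophages, and Cx3cr1, which border macrophages can express too. P2ry12, the ADP receptor that steers microglial processes (chr3:59216272-59262871, GRCm38), stood at 4524, 4958 and 4709 CPM. Tmem119, a membrane protein of microglia (chr5:113793729-113800516), stood at 2384, 2818 and 2486 CPM, and the fractalkine receptor Cx3cr1 (chr9:119901616-120069879) at 7167, 7885 and 7253 CPM. All 3 were among the 30 genes of highest mean TPM, lowest in replicate 1 and highest in replicate 2, with coefficients of variation (CV, the SD as a percent of the mean) of 4.60%, 8.85% and 5.27%. Exons of P2ry12 and Cx3cr1 overlap those of other gene models (Med12l and Gm33858), and it is not stated whether counting used strand.

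The genes behind the sort were unequal in level. Itgam, which encodes CD11b, stood at 2333, 2408 and 2275 CPM, and Ptprc, which encodes CD45, at 611, 658 and 699.5 CPM. Itgax, which encodes CD11c (chr7:128129547-128150657), stood at 29.3, 32.4 and 31.6 CPM. Per exon length these were 1810.3 ± 39.0 TPM, 139.5 ± 11.7 TPM and 25.2 ± 1.54 TPM (mean ± SD, n = 3), so the Itgax transcript was present in every library at a low and even level, with a CV of 5.15%. In bulk samples such as these, fewer cells of a type and less RNA per cell cannot be told apart, so a low level may come from few cells or from little transcript in each.

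The transcripts of highest level were those of secreted and lysosomal proteins of macrophages. Cst3, the secreted inhibitor of cysteine proteases cystatin C, led at 36344, 35660.5 and 31345 TPM. Among the next were the lysosomal aspartyl protease Ctsd at 16421, 17030.3 and 14957 TPM and the cysteine protease Ctss at 14070.4, 15441 and 13716 TPM. The complement genes C1qa and C1qb followed, at 11718, 12432 and 11503 TPM and 10493, 11064 and 9651 TPM. The receptors Csf1r, at 8322 ± 462 TPM, P2ry12, at 7228 ± 371 TPM, and Cx3cr1, at 6420.2 ± 337 TPM, stood among the first 13 genes.

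Alongside these effector genes stood genes of the immediate-early class. The cells had been isolated ex vivo, and the part of isolation in the levels of this class was not tested. Fos was listed at 14872, 6429 and 7709 TPM and Jun at 10548, 6628 and 8315 TPM, with replicate 1 far above the others for Fos. Junb, Egr1 and the mRNA decay factor Zfp36 were also among the 30, as was the small GTPase gene Rhob at 6787, 6058 and 6725 TPM. Of these 30 genes, 9 belonged to a list of 30 homeostatic microglia genes, 8 to the lists of secreted factors, 6 to the lysosomal class, 6 to the immediate-early class and 2 to the mitochondrial genome, with genes in several lists counted in each. The remaining names were housekeeping or immune genes such as B2m, the light chain of MHC class I molecules, at 6093 ± 285 TPM, and the actin-binding thymosin Tmsb4x and the actin gene Actb, at 5356 ± 96.8 TPM and 3829 ± 24.3 TPM.

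Most neighbours in this order cannot be separated. The range over libraries overlapped in 22 of the 29 neighbouring pairs, whereas Cst3 was above Ctsd in every library with a gap between the ranges. Ordered by CPM, which favours long transcripts, 22 of the 30 genes stayed among the first 30 and Csf1r came first at 12387, 13163 and 11526 CPM. The exons of 11 of the 30 genes overlap another gene model.

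**Figure D1:**
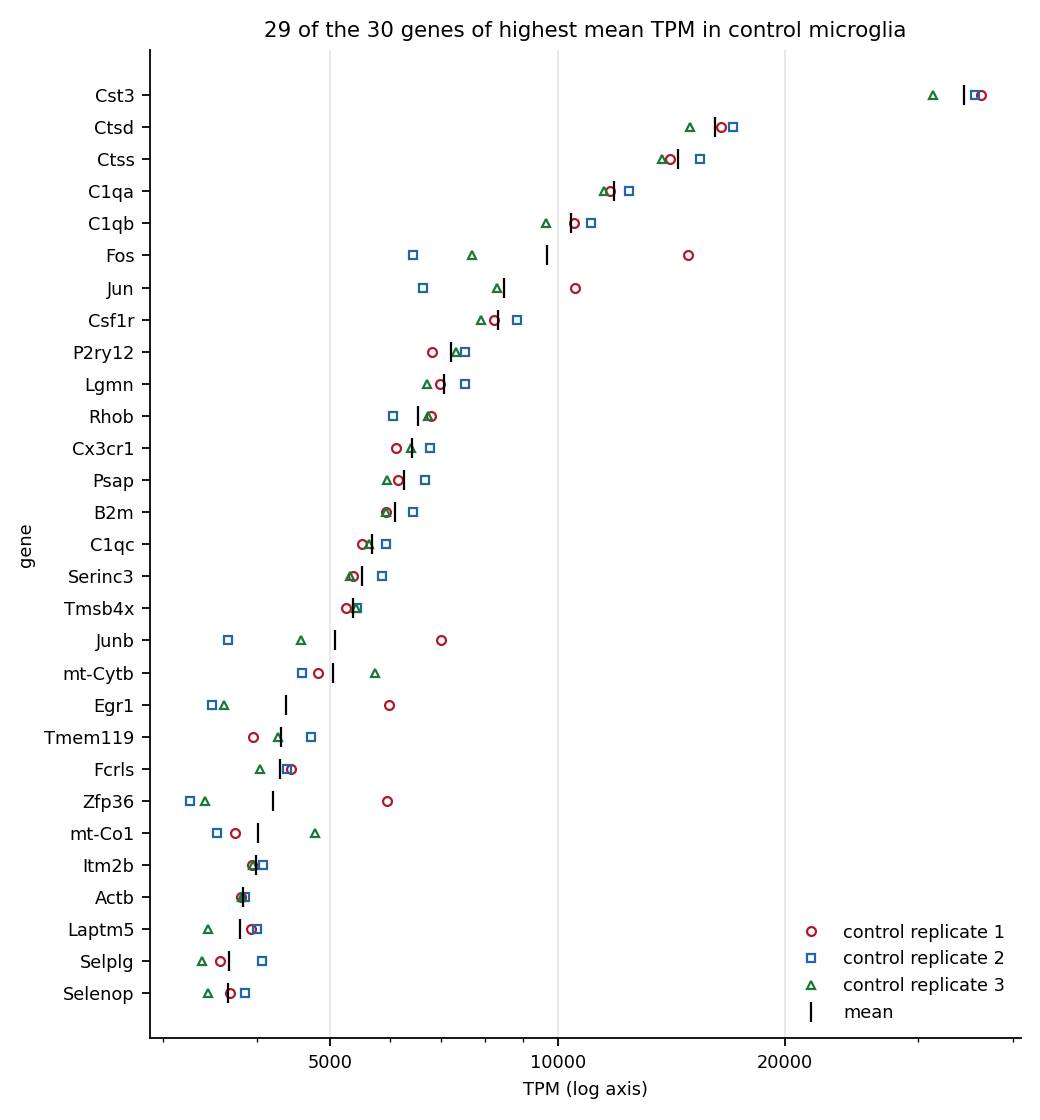
TPM (log axis) of 29 of the 30 genes of highest mean TPM, with 1 symbol for each of the 3 control libraries and a bar for the mean. Cst3 stands alone at the top with a mean of 34449.9 TPM, and the widest rows are immediate-early genes such as Fos, where replicate 1 was at 14872 TPM and replicate 2 at 6429 TPM.

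Promoter sequence is printed for 5 genes to show the start-site context of the leading microglial genes and of 1 immediate-early gene. Each run is 300 bases from RefSeq (build GRCm38.p6), from 250 bases before the start to 50 after it, 5′ to 3′ on the gene's strand. Capitals mark a match to PU.1, the master factor of myeloid cells, searched as GAGGAAGT, or to the cAMP response element (CRE), searched as TGACGTCA. The AP-1 site, searched as TGANTCA, and the CArG box of serum response factor were searched too, all on both strands.
P2ry12, chr3:59262936-59263235, minus strand: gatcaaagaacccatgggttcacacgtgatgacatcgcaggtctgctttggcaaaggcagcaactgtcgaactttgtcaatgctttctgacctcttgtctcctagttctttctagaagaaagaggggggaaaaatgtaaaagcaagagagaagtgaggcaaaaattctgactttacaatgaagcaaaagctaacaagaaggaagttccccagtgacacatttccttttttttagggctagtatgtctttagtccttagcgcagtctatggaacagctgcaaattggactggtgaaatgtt
Cx3cr1, chr9:120068247-120068546, minus strand: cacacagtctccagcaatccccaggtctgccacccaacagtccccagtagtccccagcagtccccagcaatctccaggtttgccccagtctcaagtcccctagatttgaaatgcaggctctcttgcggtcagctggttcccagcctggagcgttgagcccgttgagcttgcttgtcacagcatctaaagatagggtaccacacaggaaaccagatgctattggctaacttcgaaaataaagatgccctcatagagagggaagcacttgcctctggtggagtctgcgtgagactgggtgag
Ctss, chr3:95526536-95526835, plus strand: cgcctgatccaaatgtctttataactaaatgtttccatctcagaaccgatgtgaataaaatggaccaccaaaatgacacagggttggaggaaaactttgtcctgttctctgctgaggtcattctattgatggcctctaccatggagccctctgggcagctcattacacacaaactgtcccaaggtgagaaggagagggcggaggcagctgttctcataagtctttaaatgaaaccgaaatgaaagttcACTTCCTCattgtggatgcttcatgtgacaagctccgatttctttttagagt
C1qc, chr4:136892865-136893164, minus strand: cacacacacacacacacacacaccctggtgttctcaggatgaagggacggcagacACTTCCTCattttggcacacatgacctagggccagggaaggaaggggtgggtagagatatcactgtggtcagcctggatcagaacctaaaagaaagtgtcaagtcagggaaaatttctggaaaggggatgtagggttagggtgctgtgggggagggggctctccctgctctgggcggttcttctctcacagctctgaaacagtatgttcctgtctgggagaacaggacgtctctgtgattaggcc
Dusp1, chr17:26508423-26508722, minus strand: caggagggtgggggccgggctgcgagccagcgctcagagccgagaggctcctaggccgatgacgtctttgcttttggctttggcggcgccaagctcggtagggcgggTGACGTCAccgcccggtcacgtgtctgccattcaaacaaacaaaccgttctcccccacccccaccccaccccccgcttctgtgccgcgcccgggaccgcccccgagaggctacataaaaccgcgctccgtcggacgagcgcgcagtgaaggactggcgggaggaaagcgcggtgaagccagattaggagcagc
In the Ctss window the PU.1 letters, read from the other strand, begin 2 bases before the start, and in the C1qc window they begin 195 bases before it. The phosphatase gene Dusp1, an immediate-early gene, holds the CRE letters 143 bases before its start. None of the 4 motifs is in the windows of P2ry12, Cx3cr1, Cst3, C1qb, Fos, Fosb, Jun, Junb, Atf3 and Klf4, which says only that these letters are not in those 300 bases.

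Across the 27025 genes with a promoter in the table, 3.69% held the PU.1 letters, 2.03% the CRE, 8.97% the AP-1 site and 1.81% the CArG box. Of the 100 genes of highest mean TPM, 75 had an entry and 9 of them (12%) held the PU.1 letters. Of all genes that reached a mean of 1 CPM and had an entry, 369 of 9222 held them, and 1 of the 23 homeostatic genes with an entry (4.35%) held the letters. The 9 were C1qc, Cd53, Ctss, Ddx5, Pld4, Ptgs1, S100a8, Selenop and Slco2b1. Of the 38 immediate-early genes, 32 had an entry, of which 4 (12.5%) held the CRE and 3 (9.38%) the CArG box, while 1 (3.12%) held the AP-1 site. Among all genes that reached a mean of 1 CPM the shares were 3.70%, 1.45% and 5.92%. These counts are small, and a match is a description of the sequence only.

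Sorted by function, each gene in 1 class only, receptors and ion channels took the largest named share of the counts, 8.98, 9.63 and 9.04% (9.22% ± 0.361). Their leading genes were Csf1r, Cx3cr1 and P2ry12. Lysosomal enzymes, lysosomal membrane proteins and the proton pump took 5.59, 5.89 and 5.33% (5.60% ± 0.282), with Ctsd and Ctss among its leading genes. The 38 immediate-early genes took 6.11, 3.33 and 3.74%, so that replicate 1 held more of its counts in these few genes than in the lysosomal class and replicates 2 and 3 held less. Without replicate 1 their mean share was 3.53%. Protein-coding genes outside the named classes held 61.0% ± 1.55.

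Several smaller classes took similar shares. Kinases and phosphatases took 2.21% ± 0.0532, RNA-binding and splicing proteins 1.86% ± 0.0717, the actin cytoskeleton 1.69% ± 0.0447, and solute carriers 1.68% ± 0.0463. Complement took 0.985% ± 0.0504 of counts and 2.85% of TPM. The 87 cytoplasmic ribosomal protein genes took 0.371% ± 0.0228 and 0.795% of TPM, and these genes have near-identical copies, so their counts are uncertain. Mitochondrially encoded genes took 0.630, 0.587 and 0.750% and 2.19% of TPM.

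Heat shock proteins and co-chaperones took 0.744, 0.550 and 0.560%, with replicate 1 highest. MHC class I genes with their peptide loaders took 0.359% ± 0.0207, while MHC class II genes took 0.0396% ± 0.00523. Nuclear long noncoding RNAs, led by Malat1 and Xist, took 0.548, 0.331 and 0.458%. The share of counts also differed with transcript length: protein-coding genes whose longest transcript is under 1 kb are 10.3% of such genes and took 2.39% ± 0.112 of counts, and those of 2 to 5 kb are 50.7% and took 58.1% ± 1.14.

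**Figure D2:**
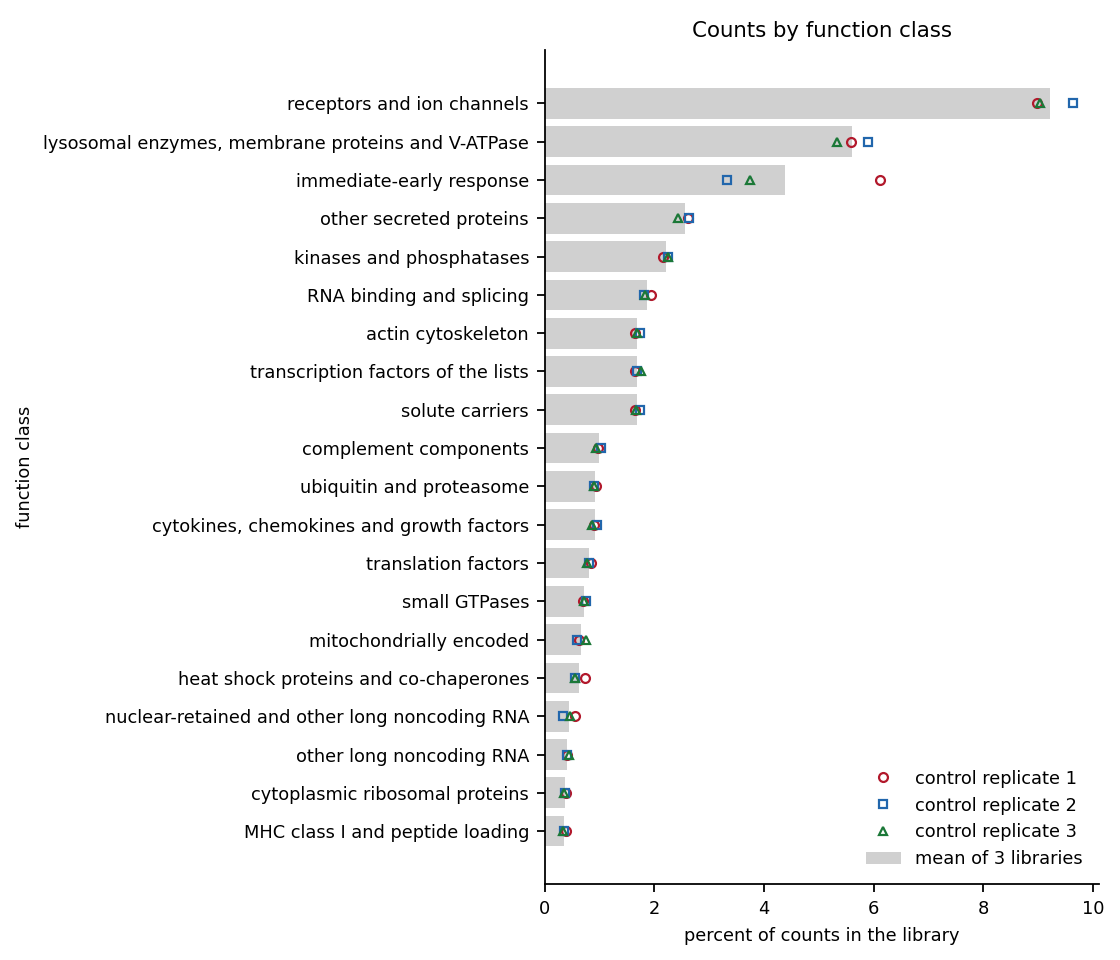
Percent of counts (axis from 0) in the 20 classes of largest share after other protein-coding genes. Other long noncoding RNA is a remainder by annotation, not a named class. Bars are means of 3 libraries and symbols the libraries. The immediate-early class shows the widest gap, with replicate 1 at 6.11% and replicate 2 at 3.33%.

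Receptors and channels were read from 11 lists with 339 distinct genes, picked for their relevance to microglia. Of these, 258 (76.1%) had a mean of at least 1 CPM, 117 (34.5%) at least 100 CPM, and 28 had no count. Among all 21474 protein-coding genes the shares were 51.8% and 10.2%, and 31.7% had no count. The median over genes that reached a mean of 1 CPM was 24.8 TPM, against which the levels below can be read.

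Purinergic receptors were steeply graded. P2ry12 was followed by its close relative P2ry13 at 2281, 2599 and 2402 TPM, by the UDP receptor P2ry6 at 301, 383 and 341 TPM, and by the ATP-gated channel P2rx7 at 219, 248 and 254 TPM. The adenosine receptor Adora3 stood at 151 ± 15.1 TPM and P2rx4 at 46.0 ± 6.00 TPM. The ranges of these 6 neighbours did not overlap. Of 19 listed genes, 9 reached 1 CPM; Adora2a, a receptor linked to process retraction, was at 0.117, 0 and 0 CPM, and P2ry4 and P2ry10 had no count. Replicate 2 was highest in all 7 members with at least 10 CPM, and in 41.3% of all genes at that level.

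Among receptors for chemokines and chemoattractants Cx3cr1 stood far above the rest. The chemerin receptor Cmklr1 was at 361 ± 35.0 TPM, above the complement receptors C3ar1 at 232 ± 15.2 TPM and C5ar1 at 102 ± 14.4 TPM. Ccr2, the receptor that recruits monocytes, was at 7.16, 8.22 and 12.0 CPM, highest in replicate 3 with the monocyte markers. Ccr4, Ccr7, Ccr8 and Cxcr1 had no count, and 18 of 27 genes reached 1 CPM. Other G protein-coupled receptors were led by the lysophosphatidylserine receptor Gpr34 at 3088, 3339 and 3110 TPM, the adhesion receptor Adgrg1 at 886 ± 57.0 TPM and Adgre1, which encodes F4/80, at 739 ± 72.5 TPM. Gpr84, at 246 ± 37.2 TPM, and the platelet-activating factor receptor Ptafr, at 209 ± 16.6 TPM, overlapped in range. The cannabinoid receptor Cnr1 had no count, while Cnr2 was at 29.1, 40.7 and 31.9 CPM.

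Receptors for neurotransmitters were mostly under 1 CPM. Of 28 listed genes, 7 reached 1 CPM and 10 had no count, among them Drd1, Drd2 and Chrna7. The GABA-B receptor subunit Gabbr1 stood at 128, 126 and 139 TPM. The partner subunit Gabbr2 was at 0.117, 0.108 and 0.267 CPM. The noradrenaline receptor Adrb1 was at 42.3 ± 14.3 TPM, the VIP receptor Vipr1 at 26.7 ± 1.29 TPM and the histamine receptor Hrh2 at 13.5 ± 1.03 TPM. The glutamate receptor subunits Gria1, Grin1 and Grin2b were each under 1 CPM in every library.

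Cytokine and growth factor receptors held the gene of most counts, Csf1r, the receptor for CSF1 and IL-34, at 8230.2, 8823 and 7914 TPM. The TGF-beta type I receptor Tgfbr1 stood at 1512, 1632 and 1828 TPM, and its partner Tgfbr2 at 363 ± 33.1 TPM. The interleukin-10 receptor Il10ra, the G-CSF receptor Csf3r, the apoptotic-cell receptor Mertk and the interferon-gamma receptor Ifngr1 followed at 1247 ± 56.0 TPM, 1120.1 ± 42.6 TPM, 1113 ± 98.1 TPM and 945 ± 78.9 TPM, of which Csf3r and Mertk overlapped in range. In this list 45 of 51 genes reached 1 CPM and 26 reached 100. The low members were receptor tyrosine kinases of other lineages: Kit was at 0, 0.216 and 0.533 CPM, Pdgfra at 0, 0.108 and 0.400 CPM, and Mst1r had no count. Axl, a relative of Mertk, was at 33.9, 65.5 and 56.8 CPM, lowest in replicate 1.

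Pattern receptors were broadly present, with 33 of 39 at 1 CPM or more and none without a count. Cd14, the lipopolysaccharide co-receptor, stood at 769.6 ± 129 TPM, Ly86 at 712 ± 71.5 TPM and Tmem173, which encodes the DNA sensor adaptor STING, at 689 ± 77.7 TPM, and these 3 could not be ordered. The RNA sensor Tlr7 followed at 504 ± 38.1 TPM and Cd180 at 356 ± 5.33 TPM. Low members were the C-type lectins Clec4d, at 0.352, 0.108 and 0.267 CPM, Clec4n, at 0.117, 0.757 and 0.133 CPM, and Clec4e, at 0.235, 0.757 and 1.60 CPM.

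Paired immune receptors and their adaptors included several genes of high level. Fcrls, an Fc receptor-like gene of microglia, stood at 4436, 4374 and 4035 TPM, and the checkpoint receptor Vsir at 2523, 2729 and 2576 TPM. The ITAM adaptor Tyrobp, the don't-eat-me receptor Sirpa and the Siglec gene Siglech followed at 2570.3 ± 273 TPM, 2554 ± 136 TPM and 1917 ± 62.8 TPM. Vsir, Tyrobp and Sirpa overlapped as neighbours. Trem2, the lipid-sensing receptor that signals through Tyrobp, was at 937 ± 57.5 TPM. In this list 37 of 39 genes reached 1 CPM, and Sirpb1a and Pilrb1 had a mean under 1 CPM; members of these clustered families share sequence, so reads may have been split between copies.

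Adhesion receptors were led by Selplg, the P-selectin ligand, at 3571, 4059 and 3379 TPM, followed by the integrin genes Itgb5 and Itgam at 2207 ± 196 TPM and 1810.3 ± 39.0 TPM and the tetraspanin genes Cd81 and Cd9 at 1759 ± 111 TPM and 991 ± 34.4 TPM. Itgam and Cd81 overlapped in range. The only member of 27 with a mean under 1 CPM was Itgad, at 1.41, 0.865 and 0.667 CPM. Scavenger and lipoprotein receptors were led by the lysosomal glycoprotein Cd68 at 1693 ± 154 TPM, by Stab1 at 564 ± 23.7 TPM and by Lrp1 at 539 ± 129 TPM, the last a long transcript with 2657, 1811 and 2888 CPM. Low members were the scavenger receptor Marco, at 0, 0.108 and 0 CPM, and Stab2 and Havcr1, without a count.

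Ion channels were led by Clic1 at 542 ± 51.6 TPM, the background potassium channel Kcnk6 at 321 ± 25.2 TPM, the proton channel Hvcn1 at 297 ± 17.9 TPM, the calcium entry channel Orai1 at 157 ± 7.13 TPM and the lysosomal channel Tpcn1 at 106 ± 6.46 TPM. Kcnk13, which encodes the potassium channel THIK-1 of microglia, was at 96.4 ± 4.93 TPM. The neuronal sodium channel Scn1a and the potassium channels Kcna2 and Kcna5 had no count. Nuclear receptors were modest: the liver X receptor Nr1h2 and the glucocorticoid receptor Nr3c1 stood at 156 ± 9.03 TPM and 146 ± 16.7 TPM, with overlapping ranges, and Rxrb, Rxra and Ppard at 121 ± 3.005 TPM, 83.0 ± 1.29 TPM and 49.0 ± 4.37 TPM. Ppara, Esr2 and Pgr had no count, and Pparg was at 0, 0.324 and 0 CPM.

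**Figure D3:**
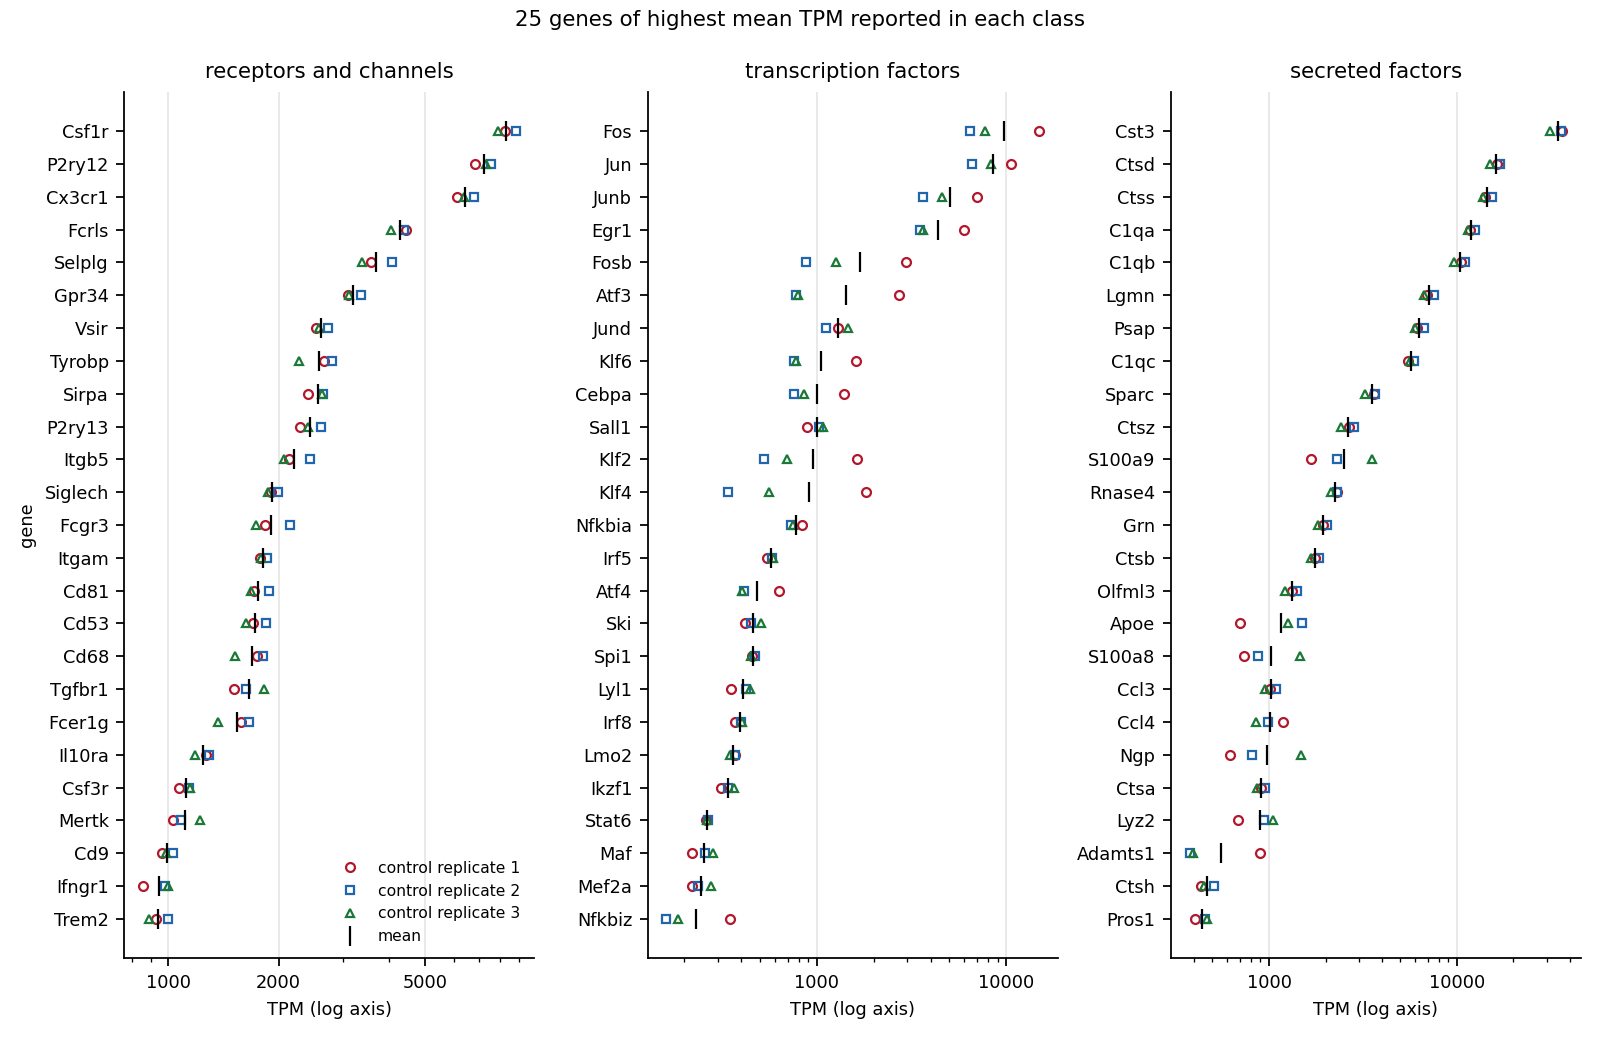
TPM (log axes that differ between panels) of 25 genes of highest mean TPM among those reported of the receptors and channels, transcription factors and secreted factors; symbols are the 3 control libraries and bars the mean. Receptors lie close together in each row, whereas Klf4, at 1812 TPM in replicate 1 and 339 in replicate 2, spreads widely among transcription factors, and S100a9, from 1681 to 3531, among secreted factors.

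Transcription factors were read from 8 lists with 170 distinct genes, chosen with earlier results of these data known. Of these, 132 (77.6%) reached 1 CPM, 59 (34.7%) reached 100 CPM and 12 had no count. The shares among all protein-coding genes, for comparison, are those given with the receptors. Among the factors of the microglial and myeloid lineage, Sall1, which is specific to microglia among macrophages, stood at 885, 1025 and 1077 TPM. Cebpa was at 1391, 753 and 854 TPM and Klf4 at 1812, 339 and 561 TPM, both highest in replicate 1. Spi1, which encodes PU.1, was lower and even, at 454, 469.7 and 452 TPM. In the order Cebpa, Sall1, Klf4 and Spi1 each neighbouring pair overlapped in range. Irf8 stood at 391 ± 19.7 TPM and Mef2c at 131 ± 13.98 TPM. Gata1 and Gata6, factors of red cells and of peritoneal macrophages, had no count, nor had Mef2b; Ikzf3 was at 0.235, 0 and 0 CPM.

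AP-1 factors held the highest levels among the transcription factors, and the leading ones were uneven between libraries. After Fos and Jun came Junb at 7003, 3656 and 4565 TPM, Fosb at 2957, 877 and 1260.1 TPM and Atf3 at 2716, 777 and 793 TPM. Replicate 1 was highest for all 5, and for Atf3 replicates 2 and 3 were nearly equal. In CPM, Fosb was at 4812, 1415 and 1984 CPM and Atf3 at 1525, 433 and 431 CPM. By contrast Jund was at 1290.4, 1116 and 1469 TPM, highest in replicate 3, and the lowest member, Fosl1, was at 0.117, 0.433 and 0.400 CPM. Egr1 led the next list at 5981, 3484 and 3619.9 TPM, followed by Klf6 at 1612, 755 and 776 TPM, Klf2 at 1634, 529 and 694 TPM and Klf4, all highest in replicate 1. Serum response factor Srf, which acts upstream of many of these genes, was even at 73.9, 70.3 and 74.0 TPM. Members of the same lists stood low, with Nr4a2 at 0.939, 0.973 and 0.533 CPM, Nr4a3 at 1.17, 0.757 and 0.533 CPM and Egr4 at 0, 0.108 and 0.133 CPM.

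Factors of inflammatory and interferon signalling were present at moderate levels, with median CVs of 6.34% and 4.78% over members with at least 10 CPM, against 11.7% for the AP-1 list and 19.7% for the EGR, NR4A and KLF list. The NF-kB inhibitor Nfkbia stood at 839, 734 and 752 TPM, Nfkbiz at 347, 160.4 and 185 TPM and the subunit Rela at 188, 204 and 195 TPM. Nfkbiz was the exception, with a CV of 45.3% and its highest level in replicate 1. All 11 genes of that list reached 1 CPM. Irf5 was at 570.3 ± 22.3 TPM, Stat6 at 264 ± 3.11 TPM, Irf3 at 109.7 ± 6.43 TPM and Irf1 at 105 ± 8.69 TPM; Stat4 was at 0.117, 0.433 and 0.267 CPM. Replicate 1 was lowest in 12 of the 14 members with at least 10 CPM, and in 52.1% of all genes at that level. The median CV of this list was 1.80% without replicate 1 and 2.62% with TMM scaling. Without replicate 1 the NF-kB list was at 3.62% and the AP-1 list at 6.43%.

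TGF-beta signalling was represented by its repressors and its SMAD factors together. The co-repressors Ski and Skil stood at 459 ± 45.0 TPM and 192 ± 21.7 TPM, Smad3 at 168 ± 4.42 TPM, the inhibitory Smad7 at 159 ± 28.0 TPM and Tgif1 at 93.0 ± 9.51 TPM. Tcf7 had no count, and Lef1 and Smad9 were at 0.117, 0 and 0.400 CPM and 0, 0 and 0.267 CPM. Clock genes were led by Per1 at 154 ± 27.0 TPM, Bhlhe41 at 115 ± 22.7 TPM, Tef at 55.7 ± 2.66 TPM, Nr1d2 at 40.3 ± 3.73 TPM and Clock at 21.3 ± 1.49 TPM, and Npas2 was at 0.117, 0.216 and 0.267 CPM; the time of sampling is not given in the sources used here.

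A list of 16 factors of other tissues gave a floor for this class. Hoxb4 was its only member with a mean of at least 1 CPM, at 2.35, 2.38 and 4.40 CPM. Sox9 and Sox2 were at 0.704, 0.433 and 1.20 CPM and 0.117, 0.541 and 0.133 CPM, Olig2 at 0.117, 0.108 and 0.133 CPM, and 6 members had no count, among them Hoxc8, Hoxa9, Nkx2-1, Myod1 and Hnf4a.

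Secreted factors were read from 7 lists with 301 distinct genes. Of these 155 (51.5%) reached 1 CPM, 49 (16.3%) reached 100 CPM and 77 had no count. The share at 1 CPM was close to that of all protein-coding genes (51.8%), and 10.2% of those reached 100 CPM.

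Complement genes ranged from the highest levels to no count. The 3 C1q chains, which start the classical pathway and tag synapses, stood at 11718, 12432 and 11503 TPM for C1qa, 10493, 11064 and 9651 TPM for C1qb and 5503, 5925 and 5624 TPM for C1qc. C1qbp, a mitochondrial C1q-binding protein, was at 47.0 ± 3.44 TPM. C3, the central component, was at 19.2, 26.7 and 38.3 CPM, in the order of the neutrophil and monocyte markers, whose part in it was not tested. The proteases that C1q needs were low or without a count, with C1ra at 2.70, 2.49 and 1.33 CPM, and C1s1 and C1rb without a count. In all, 12 of 29 complement genes reached 1 CPM and 11 had no count.

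Among chemokines Ccl3 and Ccl4, inflammatory chemokines that attract leukocytes, stood highest at 1017, 1095 and 947 TPM and 1191, 992 and 852 TPM, overlapping in range. Ccl12, Ccl6 and Ccl9 followed at 275 ± 22.2 TPM, 144 ± 7.59 TPM and 119 ± 5.68 TPM. Of 41 chemokine genes 15 had no count, Cxcl1, Ccl20 and Ccl11 among them. Cytokines were led by Il1a at 348, 256 and 264 TPM and Tnf at 206, 209 and 171 TPM, then Il18, Osm and Ebi3 at 101 ± 5.74 TPM, 84.6 ± 8.89 TPM and 78.0 ± 7.95 TPM. Il1b, the other interleukin-1, was at 4.58, 5.52 and 3.87 CPM, and Il6 at 3.99, 6.60 and 8.27 CPM. Interferon-gamma (Ifng), Il17a and Il34, the brain ligand of CSF1R, had no count, and 28 of 58 genes in this list were without one. Il10 was at 0, 0.324 and 0 CPM and Ifnb1 at 0, 0.216 and 0 CPM.

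Growth and trophic factors were led by Psap, which encodes the precursor of the lysosomal saposins, at 6148, 6680.1 and 5948 TPM, and progranulin, Grn, at 1939.6, 2040.2 and 1814 TPM. Pdgfb, Tgfb1 and Sema4d followed at 314 ± 23.8 TPM, 297 ± 17.0 TPM and 242 ± 22.8 TPM, with Pdgfb and Tgfb1 overlapping. Csf1 was at 50.8, 46.9 and 51.7 CPM. The neurotrophins Bdnf and Ntf3 had no count, nor had Gdnf, and Igf1, a growth factor attributed to some microglial states, was at 2.35, 4.33 and 1.73 CPM.

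Proteases and their inhibitors held the leading gene, Cst3, and after Ctsd and Ctss the asparaginyl endopeptidase Lgmn at 6974, 7545 and 6703 TPM and Ctsz at 2632 ± 198 TPM. Timp4 and Spink2 had no count, and Serpina3n was at 0, 0 and 0.133 CPM. Carriers and matrix proteins were led by Sparc at 3633, 3671 and 3230.4 TPM. By mean TPM Olfml3 came next, at 1332, 1408 and 1212 TPM, and both are of the homeostatic list. Apoe ranged from 702 to 1493 TPM and overlapped Olfml3, which was the higher of the pair in only 1 library. Apoe, the main lipid carrier of the brain, was uneven, at 391, 825 and 682 CPM, with replicate 1 lowest and replicate 2 highest. Its order over the libraries was that of the border macrophage markers, whose summed level was 55.3, 136 and 97.6 CPM. The 3 summed microglia genes, at 14076, 15661 and 14448 CPM, had the same order. The part of border macrophages in the Apoe level was not tested. Pros1 and Lgals9 followed at 442 ± 34.2 TPM and 369.6 ± 19.3 TPM, and Col4a1 and Apoa1 had no count.

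Antimicrobial proteins moved with the neutrophil markers, several of which are in both lists. S100a9 stood at 1681, 2299 and 3531 TPM, Rnase4 at 2305, 2297 and 2125 TPM, S100a8 at 738, 872 and 1464 TPM, Ngp at 623, 809 and 1479 TPM and lysozyme, Lyz2, at 681, 942 and 1049 TPM. Rnase4, a homeostatic microglia gene that shares exons with Ang, was even, while the 4 others were highest in replicate 3. The list's median CV was 35.9% over 15 members with at least 10 CPM, and replicate 3 was highest in 13, against 41.7% of all genes at that level. Without replicate 3 the median CV was 18.8%. The summed neutrophil markers were at 888, 1185 and 1952 CPM; their part in these levels was not tested. Crp, Saa1, Saa2 and Ptx3 had no count.

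Gene programmes known from microglia differed in level, while most members of each list reached 1 CPM. All 30 homeostatic genes reached 1 CPM and 29 reached 100, with a median of 1564 TPM and a summed level of 84081, 88739.6 and 80550.4 CPM. Cst3, Csf1r and P2ry12 were among the leading members, and the lowest was Gpr165 at 104 ± 3.73 TPM. Of 28 genes that rise in microglia around lesions in other work, 25 reached 1 CPM and 12 reached 100. Ctsd, B2m, Tyrobp and Ctsb led this list, at 16136, 6093, 2570.3 and 1762 TPM, and the lowest, Gpnmb, was at 1.06, 0.324 and 0.267 CPM. Its other low members included Spp1, at 12.7, 8.22 and 7.20 CPM, Cst7, at 4.93, 6.81 and 3.87 CPM, and Lgals3, at 3.76, 5.95 and 8.53 CPM.

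Interferon response and cell cycle genes were low. Of 28 interferon response genes 26 reached 1 CPM and 0 reached 100, and the list summed to 423, 485 and 492 CPM. Bst2, Slfn8, Stat2 and Ifitm3 led, at 205 ± 9.15 TPM, 92.5 ± 9.33 TPM, 54.0 ± 3.94 TPM and 39.4 ± 14.6 TPM, and Ifi44 was at 0.469, 0.649 and 0.400 CPM. Of 25 cell cycle genes 22 reached 1 CPM and 0 reached 100, and the list summed to 243, 233 and 238 CPM. The replication genes Pcna, Mcm3, Mcm6 and Mcm5 led, at 106 ± 9.54 TPM, 59.0 ± 1.34 TPM, 16.5 ± 0.517 TPM and 13.4 ± 1.02 TPM. The proliferation marker Mki67 was at 15.5, 13.5 and 21.7 CPM. Ccnb1 was lowest, at 0.587, 0.757 and 0.133 CPM.

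Lipid transport and remodelling genes stood higher than genes of lipid synthesis. The desaturase Scd2 led synthesis at 91.2 ± 2.62 TPM, followed by Srebf1, Elovl5 and Srebf2 at 51.7 ± 4.64 TPM, 49.7 ± 3.45 TPM and 29.6 ± 1.499 TPM, and Idi1 was lowest at 0.235, 0.541 and 0 CPM. By mean TPM the acyltransferase Lpcat2, at 1379.6 ± 47.7 TPM, stood above Apoe. Apoe ranged from 702 to 1493 TPM over the libraries, so the order of Lpcat2 and Apoe is not settled. The transporter Abca9 and the sterol carrier Npc2 were lower, at 419 ± 36.4 TPM and 290.5 ± 9.34 TPM. Fabp4 had no count. The medians of the synthesis and the transport list were 14.2 and 52.9 TPM.

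Iron genes were led by the ferritin chains Fth1 and Ftl1 at 978 ± 116 TPM and 588 ± 58.2 TPM, both with processed copies in the genome that make their counts uncertain, then Slc11a1, an iron transporter of phagosomes, at 455 ± 27.9 TPM and Hmox2 at 112 ± 7.68 TPM. Hamp was at 0, 0.108 and 0.267 CPM and Cybrd1 at 0, 0.973 and 0.533 CPM. Of the NADPH oxidase, Cyba and Ncf1 stood at 736 ± 27.5 TPM and 537 ± 36.5 TPM, with the antioxidant Gpx1 at 512 ± 49.6 TPM and Rac1 at 310.3 ± 9.33 TPM, whereas the catalytic subunit gene Cybb was at 37.0 ± 13.98 TPM, with 38.0, 50.3 and 76.8 CPM, again in the order of the neutrophil markers, whose part was not tested. Nos2, the inducible nitric oxide synthase, was at 0.117, 0 and 0.267 CPM. Xist, the RNA of the inactive X chromosome, was at 1120.3, 907 and 1368 CPM, while the Y-linked genes Kdm5d and Uty had no count and Ddx3y and Eif2s3y were at 0, 0.108 and 0 CPM and 0.117, 0.108 and 0 CPM.

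Marker lists of 13 other cell types were read beside the 3 microglia genes, which summed to 14076, 15661 and 14448 CPM. Neutrophil markers were the largest of them at 888, 1185 and 1952 CPM; all 13 reached 1 CPM, and replicate 3 was highest and replicate 1 lowest in all 9 with at least 10 CPM; over all genes at that level these shares were 41.7% and 52.1%. Without replicate 3 the median CV of these markers was 21.3%, in place of 44.0%. S100a9 was at 229, 310.1 and 465 CPM, Ngp at 198, 255 and 456 CPM and Ltf at 183, 253 and 411 CPM. Monocyte markers summed to 93.9, 131 and 187 CPM, led by Chil3 at 54.9, 71.8 and 123 CPM, Ace at 8.69, 14.4 and 14.7 CPM and Ccr2, with 10 of 12 at 1 CPM. Markers of border-associated macrophages, which line vessels and meninges, summed to 55.3, 136 and 97.6 CPM, led by Mrc1 at 34.2, 74.0 and 54.0 CPM, Siglec1 at 8.33, 15.7 and 15.7 CPM and F13a1 at 5.05, 13.6 and 7.47 CPM. Choroid plexus and ependymal markers summed to 311, 512 and 589.9 CPM, of which the thyroxine carrier Ttr made up most at 288, 471 and 551 CPM, with Kl at 19.1, 34.3 and 35.2 CPM and Folr1 at 2.93, 4.33 and 2.80 CPM; Tmem212 had no count.

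Other lists were uneven in level within the list. The B cell list summed to 469, 436 and 393 CPM, nearly all from the immunoglobulin gene Ighm at 442, 406 and 371 CPM and Cd79b at 26.6, 29.5 and 21.5 CPM, while Cd79a and Ms4a1 each held 1 count over the 3 libraries, Igkc was at 0.822, 0 and 0 CPM, and Pax5 and Ebf1 had none. Astrocyte markers summed to 129.6, 126 and 134 CPM, with the glutamate transporter Slc1a3 at 123, 123 and 131 CPM, Aldh1l1 at 1.06, 1.51 and 1.60 CPM, Slc1a2 at 1.995, 0.216 and 0.667 CPM, and Gfap and Aqp4 at 0.235, 0.216 and 0 CPM and 0.352, 0.108 and 0 CPM. Oligodendrocyte markers summed to 150.00, 171 and 162 CPM, led by Cnp at 60.1, 66.8 and 58.7 CPM, Mbp at 44.5, 51.9 and 56.1 CPM and Mag at 41.0, 45.1 and 39.1 CPM, with the myelin gene Mog at 0.235, 0 and 0.267 CPM. Endothelial markers summed to 71.4, 63.7 and 64.5 CPM, led by Pecam1 at 55.5, 48.3 and 48.4 CPM, which macrophages also express, Kdr at 8.69, 9.63 and 9.87 CPM and Cdh5 at 3.52, 2.38 and 2.27 CPM, with Cldn5 at 0, 0 and 0.267 CPM and Tek and Kcnj8 without a count.

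Dendritic cell markers were low and the remaining lists were nearly empty. Dendritic cell markers summed to 37.3, 44.2 and 38.1 CPM, led by Batf3, Itgae and Zbtb46 and with Ccr7 at 0. T cell markers summed to 1.88, 1.84 and 1.60 CPM, mostly Cd4 at 0.704, 1.30 and 1.33 CPM, Lck at 0.822, 0.216 and 0.133 CPM and Cd3d at 0.117, 0.108 and 0.133 CPM, with no count for Cd3e, Cd3g, Trac, Trbc1, Trbc2 and Cd8b1. NK cell markers summed to 0.469, 0.541 and 1.20 CPM, with Ncr1, Gzmb and Eomes at 0. Neuronal markers summed to 2.70, 1.51 and 3.73 CPM, led by Syp, Map2 and Snap25 and with Nefl at 0, and erythrocyte markers to 4.34, 2.38 and 1.33 CPM. The part of any of these cell types in the levels of other genes was not tested.

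**Figure D4:**
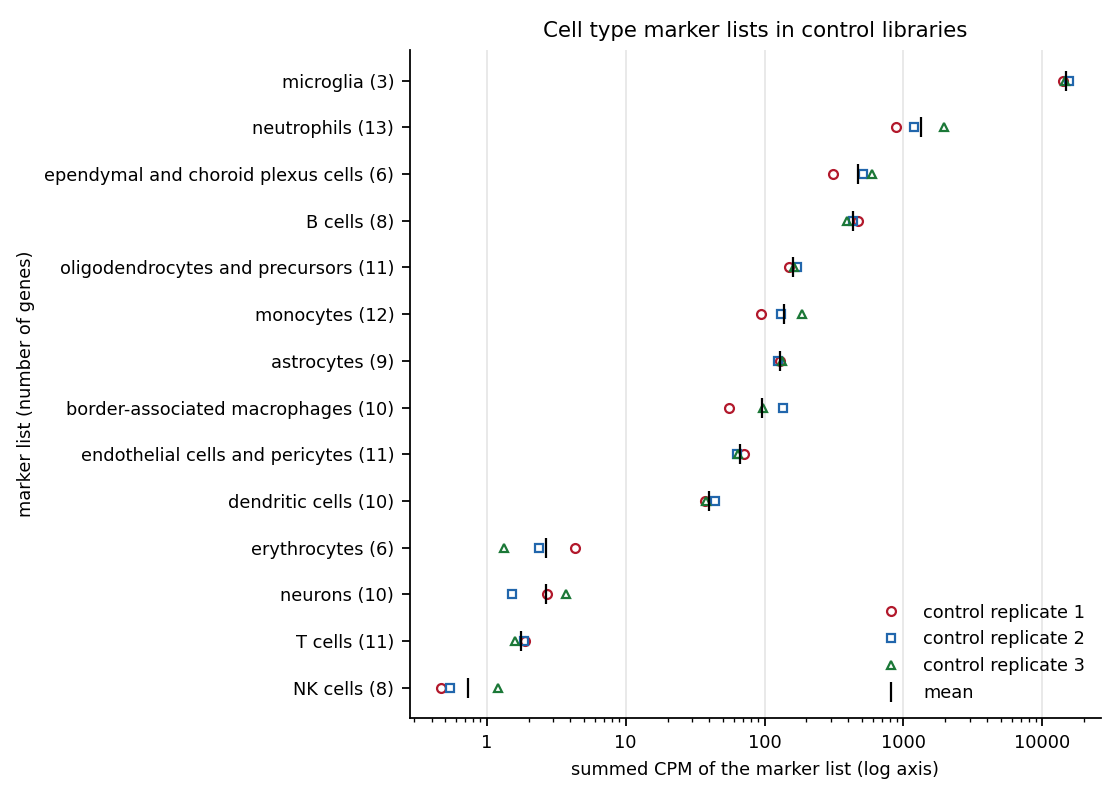
Summed CPM (log axis) of each cell type marker list, with the number of genes in brackets; symbols are the 3 control libraries and bars the mean. The 3 microglia genes lie at 14076 CPM or more in every library, neutrophil markers range from 888 to 1952 CPM, and T cell, NK cell, neuronal and erythrocyte lists lie under 5 CPM.

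Between the libraries most genes varied little. Over 8502 genes with a mean of at least 10 CPM the median CV was 7.19%, and the median CV that counting error alone would give was 4.99%. In 69.5% of these genes it was under 10%, and in 198 genes (2.33%) it was over 25%. The biological coefficient of variation, which edgeR estimates after removing counting error, was 0.0904. Among the 12 steadiest genes with at least 100 CPM were Trim44, at 149, 149 and 149 CPM, Ociad1, Ptpra, Tmx4, Gga1, Nek9, Rnf130, Cd180, Gpr107, Ubap2l and Fbxw11. Their CVs, from 0.175% to 0.453%, were below the CV that counting error alone gives, 2.82% for Trim44. They are the lowest of 2196 protein-coding genes with 3 values each.

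The least steady genes with at least 100 CPM were mostly of the immediate-early class. Klf4 was at 1440.4, 267 and 432 CPM, Atf3 at 1525, 433 and 431 CPM and Klf2 at 787, 252 and 323 CPM, with CVs of 89.1%, 79.3% and 63.9%. The other 9 of the first 12 were Fosb, the matrix protease Adamts1, the co-chaperone Dnajb1, the NF-kB brake Tnfaip3, Fos, Klf6, Dusp1, the stress phosphatase subunit Ppp1r15a and the ribosomal gene Rpl10. Replicate 1 was highest for all 12, and 8 of them were in the immediate-early class. Rpl10, at 184, 92.4 and 86.3 CPM, has near-identical copies and is uncertain.

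As a class, 29 of 38 immediate-early genes had a mean of at least 10 CPM, and their median CV was 33.5%. Replicate 1 was highest in 25 of these 29, against 17.0% of all genes at that level. The median ratio of replicate 1 to the mean of the others was 1.72, and 0.951 over all genes. Without replicate 1 the class median CV was 10.3%. The 28 heat shock genes at this level had a median CV of 10.7% and a median ratio of 1.03, and without replicate 1 their median CV was 5.99%. Homeostatic genes had a median CV of 6.65%, lysosomal genes 5.27% and receptors 7.87%, against 7.19% over all genes, which is not matched for level. By level, all genes of 100 to 1000 CPM had a median CV of 5.83%, and those of at least 1000 CPM had 6.82%. The median level of the homeostatic genes was 1623 CPM. Without replicate 3 the homeostatic median CV was 4.09%.

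Transcript length moved with the libraries too. Across 8356 genes, Spearman's rho between transcript length and a library's log2 ratio to the others was -0.166, -0.242 and 0.386 in replicates 1, 2 and 3, given as a description across genes. For 230 genes with transcripts over 10 kb the median ratio to the other libraries was 0.956, 0.856 and 1.22. Lrp1 and Xist, both long, were lowest in replicate 2 and highest in replicate 3 in CPM. Epb41l2, also long, was lowest in replicate 1, at 1771, 1883 and 1902 CPM. For the share of G and C bases in the transcript, rho was 0.061, 0.138 and -0.173 in replicates 1, 2 and 3. The part of length or base content in the spread of single genes was not tested.

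**Figure D5:**
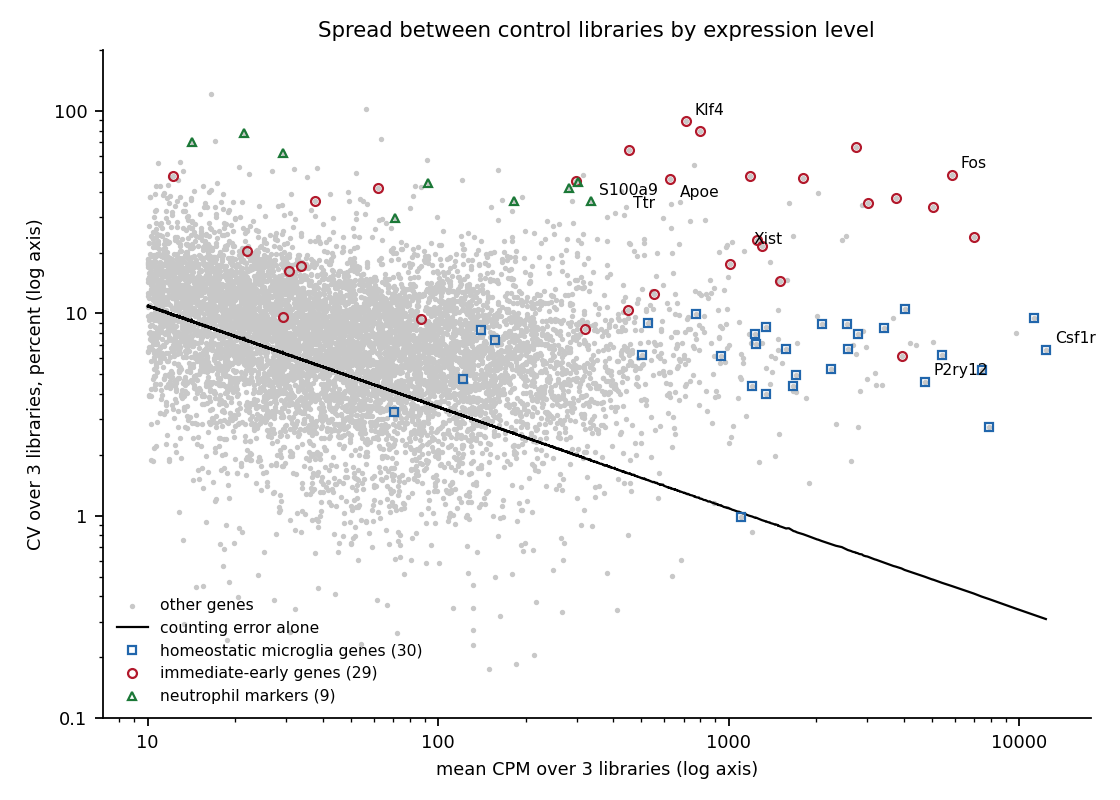
CV over the 3 libraries against mean CPM (both log axes) for 8502 genes with a mean of at least 10 CPM; the line is the CV that counting error alone gives. Immediate-early genes (circles) and neutrophil markers (triangles) lie mostly in the upper part of the cloud, with median CVs of 33.5% and 44.0%, while homeostatic genes (squares) lie within it at 6.65%.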

How the data were processed

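RNA was sequenced from 3 libraries of control microglia, used here out of 8. The authors deposited raw read counts per Ensembl gene, 1 table per library. The submitters' processing notes name STAR 2.3.11, HTSeq 0.5.4, edgeR 3.12.0 and GRCm38, without saying which step used which. For counting, strand and annotation release were not given in the sources used here. Rows that name no gene were left out of the totals.

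Counts were turned into CPM over all 41388 gene rows. TPM used the exon-union length of GENCODE M21 (GRCm38), which also gave symbols and positions: 40340 IDs matched, and the 1048 others held 0.0907% of counts. Values are means ± SD over 3 libraries, with no test and no comparison with diseased mice. The biological coefficient of variation came from edgeR 4.0.16 (R 4.3.3) with TMM, filterByExpr (minimum count 10) and an intercept-only estimateDisp, tested on simulated data. Other steps used Python 3.11.15 with pandas 2.3.3, numpy 2.4.6 and matplotlib 3.10.9. Promoter sequences came from RefSeq. Depth was 8520053, 9246061 and 7500815 counts in genes.

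Genes were grouped by 49 lists and 23 function classes, in which a gene belongs to the first class that holds it; 2 list symbols, Lilrb4a and Ighd, had no match. The members and lists were chosen with earlier results of these data known. Named genes were the microglia markers and sorting genes, the 30 genes of highest mean TPM, the 5 highest members of each receptor, transcription factor and secreted list with up to 3 members under 1 CPM, the 4 highest and the lowest of each pathway list, the 3 highest in CPM of each cell type list with those at 0, and the 12 most and 12 least variable protein-coding genes with a mean of at least 100 CPM. Chosen after their values were seen were low members beyond 3 in a list, the promoter matches, and Aqp4, Axl, C1ra, C3, Cd79a, Cldn5, Clec4e, Cnr2, Csf1, Cst7, Cybb, Gfap, Hamp, Ifngr1, Igf1, Il1b, Il6, Itgad, Jund, Kcnk13, Kdm5d, Lgals3, Malat1, Mef2c, Mki67, Mog, Ms4a1, Nr4a3, P2rx4, Pilrb1, Spp1, Tgfbr2 and Trem2. Some genes that the rule names are not reported here. Alternatives were other scalings (TMM, RLE, upper quartile), shares of TPM, another gene length, other filters on low counts, no mitochondrial genes in the total, and each library left out.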

Additional observations from a re-analysis of the deposited data

How the results depend on the processing

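Taken as a share of TPM in place of counts, the 20 most abundant genes held 19.6% in place of 11.6%, mitochondrially encoded genes 2.19% in place of 0.656%, and lysosomal genes 8.38% in place of 5.60%. The median CV of immediate-early genes, 33.5%, ran from 10.3% (without replicate 1) to 32.9% (without replicate 3) when each library was left out. With TMM scaling it was 37.2%. Single gene means apart, the other main values moved less. The number of genes that reached a mean of 1 CPM, 11914, was 11410 when every library had to reach it. Of the 50 genes of highest mean TPM, 45 were kept with the longest transcript as gene length and 38 in CPM order. The biological coefficient of variation ran from 0.0759 to 0.0991 with each library left out, and the median CV of all genes from 5.55% to 6.46%. Of the 233 gene means followed, none moved by more than 1 SD under TMM or RLE scaling, and 13 of 231 did without mitochondrial genes in the total, which raised each by 0.591 to 0.719%.

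No paired analysis was possible because 1 group was described and no comparison was made. With 3 libraries an SD is itself imprecise, and the labels do not tell whether libraries share a mouse or a preparation. Genes under about 10 CPM rest on few counts. Reads shared with overlapping gene models or near-identical copies cannot be assigned from these tables. TPM depends on the annotated exon length, which can be longer than the transcript that microglia make.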
